A study of Homo sapiens with 8 samples.

Results

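Cohesin, its loaders and CTCF were described through 10 genes of the deposited table: SMC1A, SMC3, RAD21, STAG1, STAG2, NIPBL, MAU2, WAPL, PDS5A and CTCF. They were chosen by their known roles, though with earlier results of these data known, and were found by their Ensembl gene IDs. All 10 were present among the 19002 genes of the table. The symbols were supplied with those IDs, since the table itself holds none. LoVo and GP5d are established human colorectal cancer cell lines. Each line comes from 1 tumour, so a difference between them is a difference between those lines and not between kinds of tumour. Both were untreated and were cultured in the same serum-containing medium until nearly confluent, and the labels name 4 biological replicates of LoVo and 4 of GP5d. Each of the 8 samples was hybridised to its own Affymetrix array, and each array gave 1 log2 value per gene.

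Cohesin is a ring of protein that encircles DNA. SMC1A and SMC3 form the arms of the ring, RAD21 closes it, and a STAG protein, either STAG1 or STAG2, binds RAD21. NIPBL and MAU2 load the ring onto chromatin, WAPL together with PDS5 proteins releases it, and the zinc finger protein CTCF binds DNA at sites where the sliding ring is held. The complex holds sister chromatids together until cell division, and in interphase it folds chromosomes into loops that bring enhancers near promoters or keep them apart. STAG2 is among the cohesin genes mutated in several human cancers.

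The clearest difference between the lines was in PDS5A, which was 2.83-fold lower in LoVo than in GP5d. WAPL, CTCF, SMC3 and NIPBL were higher in LoVo, by 1.19-fold to 1.47-fold. SMC1A, RAD21, STAG1, STAG2 and MAU2 did not pass the test with all 8 arrays. Thus 4 members rose and 1 fell in LoVo relative to GP5d, where to pass means an adjusted p under 0.05 in limma, fitted on all 19002 genes with the Benjamini-Hochberg adjustment. The lines differ at many genes by this measure: 43.3% of all genes passed, 21.5% higher in LoVo and 21.9% lower in LoVo. The members' share, 5 of 10, is near that background. Without LoVo replicate 3, an array that stood apart from the others, 8 of 10 passed, against 47.4% of all genes. The closer comparison is with genes whose mean is above the low peak of values described below, where 9 members lie. Of those genes 69.3% passed without that array. Only PDS5A passed and also differed by at least 1 on the log2 scale. Of all genes 13.3% did so, and 7.2% did so in its direction, lower in LoVo.

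The promoters of PDS5A, CTCF and NIPBL are shown here because these 3 genes share a sequence although PDS5A was lower in LoVo while CTCF and NIPBL were higher. Each line holds the 250 bases before the gene's annotated start, read 5′ to 3′ on the gene's strand, from RefSeq on build GRCh38.p14. Capitals mark TTGGCGC on either strand, a form of the core of sites bound by E2F factors, which drive genes of DNA replication. Other forms of that core were not searched for, so a window without capitals may still hold such a site. In PDS5A the match on one strand overlaps the match on the other.
PDS5A, chr4:39977912-39978161, minus strand: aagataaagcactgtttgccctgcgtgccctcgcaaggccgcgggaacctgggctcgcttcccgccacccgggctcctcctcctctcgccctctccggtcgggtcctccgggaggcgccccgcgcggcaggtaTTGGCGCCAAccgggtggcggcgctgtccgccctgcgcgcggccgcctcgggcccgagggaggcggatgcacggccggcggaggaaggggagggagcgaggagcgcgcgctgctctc
CTCF, chr16:67562276-67562525, plus strand: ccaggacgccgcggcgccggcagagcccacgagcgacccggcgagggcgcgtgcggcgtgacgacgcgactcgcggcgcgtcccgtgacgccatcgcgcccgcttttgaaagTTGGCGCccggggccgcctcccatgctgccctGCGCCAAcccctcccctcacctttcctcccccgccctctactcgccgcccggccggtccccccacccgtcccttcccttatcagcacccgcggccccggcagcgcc
NIPBL, chr5:36876519-36876768, plus strand: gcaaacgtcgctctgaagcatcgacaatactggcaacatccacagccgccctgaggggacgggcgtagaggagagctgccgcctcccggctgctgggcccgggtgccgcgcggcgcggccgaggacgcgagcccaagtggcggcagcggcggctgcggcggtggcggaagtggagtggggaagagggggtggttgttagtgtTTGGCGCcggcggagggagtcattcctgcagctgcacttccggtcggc

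Promoter sequences were at hand for 9 of the 10 members, in 12 windows, since SMC1A and STAG2 have several annotated starts. TTGGCGC was found in PDS5A, CTCF, NIPBL and the third of 3 windows of STAG2, thus in 4 of 9 members. Across all genes with a window, 3.11% held it in at least 1 of their windows. By window, the share rose with base composition, from 2.56% of all windows to 4.39% of those with a GC content of at least 70%. The GC contents of the windows printed above were 75.2% for PDS5A, 76.8% for CTCF and 70% for NIPBL. The motif was searched for after the sequences had been read, so 4 of 9 beside 3.11% is a description and not a test of enrichment. Nearest to the annotated start, it began 48 bases before it in NIPBL and 106 in CTCF, and in PDS5A the overlapping matches began 117 and 114 bases before it. The GC box GGGCGG, on either strand, was in all 12 windows, against 42.6% of all windows and 90.4% of those with a GC content of at least 70%. CCAAT, on either strand, was in 5 of the 12 windows. Its shares were 32.01% of all windows and 21.7% of those with that GC content. The windows of SMC1A overlap each other, so the 12 are not independent. These are matches of letters, and binding was not measured.

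Many values crowd into a low peak, where order is not reliable, and its upper end was set at 2.80 on the log2 scale, which is the mode plus 3 SDs. Of the members, 9 lay above it on all 8 arrays and 1, STAG1, lay within it on all 8. The arrays of a line were alike, with Pearson correlations across genes of 0.9973 to 0.9984 within GP5d and 0.9956 to 0.9965 among LoVo replicates 1, 2 and 4. LoVo replicate 3 stood apart, at 0.9890 to 0.9909 with the other LoVo arrays. Differences of the members above the low peak are therefore given with and without it. Markers of colorectal epithelium and of other cell types could not be looked up without gene names for the other IDs.

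**Figure D1:**
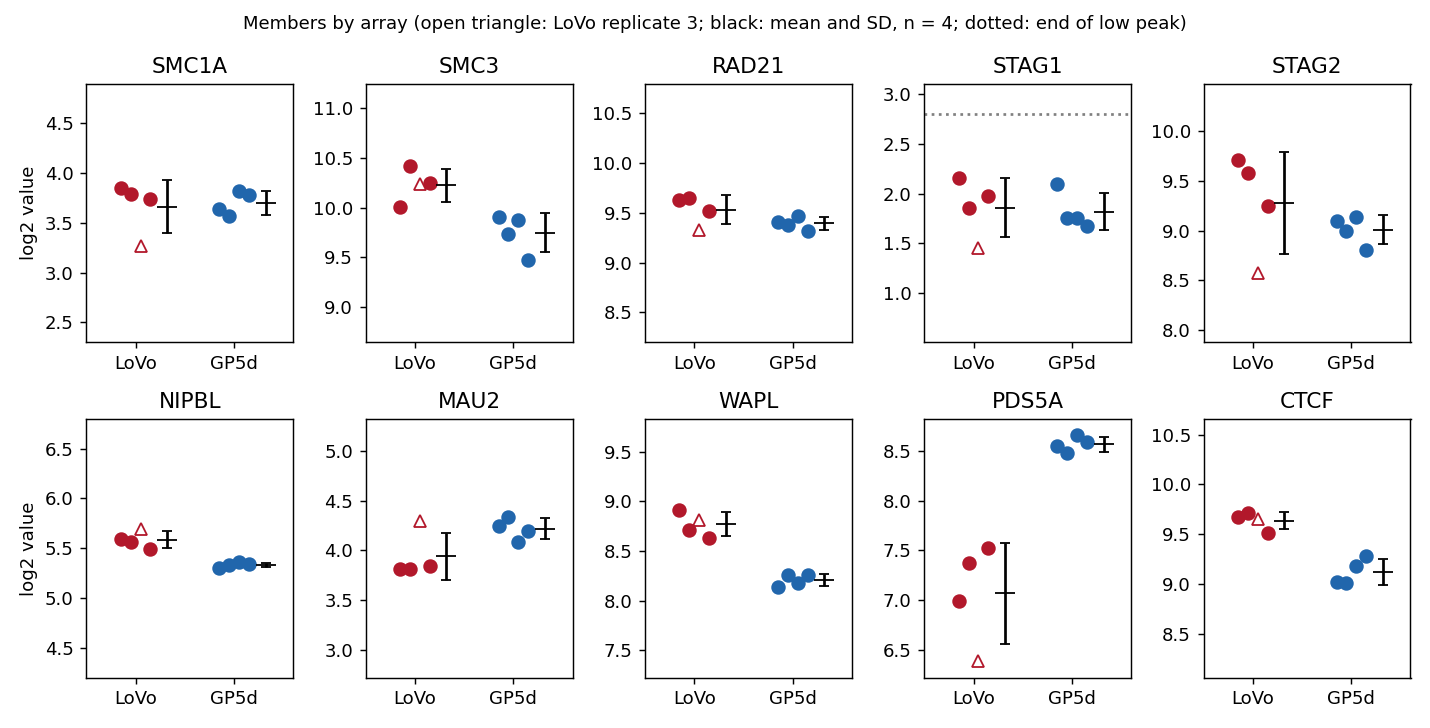
Each panel plots the log2 value of 1 member on each array, with LoVo on the left and GP5d on the right, the mean and SD of 4 arrays in black, and panels of equal height on the log2 scale. The PDS5A panel has the widest gap between the lines, and LoVo replicate 3 (open triangle) lies lowest of the LoVo arrays in SMC1A, RAD21, STAG1, STAG2 and PDS5A and highest of them in NIPBL and MAU2.

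Of the arms of the ring, SMC3 passed the test and SMC1A did not. This does not show that they differed by unequal amounts, since their ratio, tested below, did not pass with all arrays. SMC3 (ENSG00000108055_at), an ATPase arm whose acetylation locks the ring on sister chromatids, had log2 values of 10.01, 10.42, 10.24 and 10.24 in LoVo, against 9.91, 9.74, 9.88 and 9.48 in GP5d. The lowest LoVo array was above the highest GP5d array, with a gap that was small beside the spread within each line. LoVo averaged 10.23 ± 0.167 and GP5d 9.75 ± 0.195 (SD, n = 4 each). The log2 difference was 0.48, which is 1.39-fold, with an SE of 0.120 and a limma adjusted p of 0.00841. Without LoVo replicate 3 it was 0.475 (limma adjusted p = 0.0129). SMC1A (ENSG00000072501_at), the partner arm, gave 3.85, 3.79, 3.27 and 3.74 in LoVo and 3.63, 3.57, 3.82 and 3.78 in GP5d. These values overlapped throughout and lay close to the low peak, so a difference in SMC1A would be hard to see on these arrays. Its log2 difference was -0.04 with a 95% interval from -0.33 to 0.26 (limma adjusted p = 0.851), and it took the other sign, at 0.10, without LoVo replicate 3.

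RAD21 (ENSG00000164754_at), the subunit that closes the ring and is cut at anaphase, was at 9.63, 9.65, 9.33 and 9.52 in LoVo and at 9.41, 9.38, 9.47 and 9.32 in GP5d. LoVo replicates 1, 2 and 4 were above every GP5d array, while LoVo replicate 3 was among them. Its log2 difference was 0.14, with a 95% interval from -0.07 to 0.34 (limma adjusted p = 0.264). Without LoVo replicate 3 the difference was 0.20 and passed (limma adjusted p = 0.0413), in a fit in which 47.4% of all genes passed, 23.6% higher in LoVo and 23.8% lower in LoVo.

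The STAG proteins are alternative subunits: a ring carries STAG1 or STAG2. STAG2 (ENSG00000101972_at) had log2 values of 9.71, 9.58, 8.57 and 9.24 in LoVo, against 9.10, 8.999, 9.13 and 8.80 in GP5d. LoVo replicate 3 was the lowest of all 8 arrays, and the other LoVo arrays were the highest. Over 4 LoVo arrays the mean was 9.28 ± 0.510, against 9.01 ± 0.147 in GP5d (SD, n = 4 each), and the log2 difference of 0.27 did not pass (95% interval -0.22 to 0.75, limma adjusted p = 0.364). Without LoVo replicate 3 it was 0.50 and passed (95% interval 0.22 to 0.78, limma adjusted p = 0.00813). STAG1 (ENSG00000118007_at) gave 2.16, 1.86, 1.45 and 1.98 in LoVo and 2.09, 1.75, 1.76 and 1.67 in GP5d. All of these lay within the low peak, so they have no reliable order and no fold is given for STAG1 (limma adjusted p = 0.850).

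NIPBL (ENSG00000164190_at), the large subunit of the loader, had log2 values of 5.59, 5.56, 5.70 and 5.49 in LoVo and 5.30, 5.33, 5.36 and 5.34 in GP5d. The lines did not overlap, and the GP5d arrays lay closer together than those of most genes, with an SD of 0.0229 (n = 4). The log2 difference was 0.25, or 1.19-fold, with an SE of 0.0735 and a limma adjusted p of 0.0176. It was 0.218 without LoVo replicate 3 (limma adjusted p = 0.0196). It no longer passed without GP5d replicate 1, at a difference of 0.24 (limma adjusted p = 0.0538). MAU2 (ENSG00000129933_at), which binds the N-terminal part of NIPBL, was at 3.81, 3.81, 4.29 and 3.85 in LoVo and at 4.25, 4.34, 4.09 and 4.20 in GP5d. LoVo replicates 1, 2 and 4 were below every GP5d array and LoVo replicate 3 was within the GP5d range. On those 3 LoVo arrays MAU2 lay about as close to the low peak as SMC1A did. The log2 difference was -0.28 (95% interval -0.55 to -0.01, limma adjusted p = 0.0906), and without LoVo replicate 3 it was -0.40 and passed (limma adjusted p = 0.00208).

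The release factors differed in opposite directions. WAPL (ENSG00000062650_at), which opens the ring and shortens its stay on DNA, had log2 values of 8.91, 8.71, 8.81 and 8.64 in LoVo, against 8.14, 8.25, 8.18 and 8.26 in GP5d. Every LoVo array was above every GP5d array. LoVo averaged 8.77 ± 0.121 and GP5d 8.21 ± 0.0585 (SD, n = 4 each). The log2 difference was 0.56, or 1.47-fold, with an SE of 0.0839 and a limma adjusted p of 0.000352. Without LoVo replicate 3 it was 0.545 (limma adjusted p = 0.000504).

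PDS5A (ENSG00000121892_at), a scaffold that binds RAD21 and works both with WAPL in release and with the acetyltransferases that protect cohesion, had log2 values of 6.99, 7.37, 6.38 and 7.53 in LoVo, against 8.55, 8.48, 8.66 and 8.58 in GP5d. All LoVo arrays were below all GP5d arrays by a wide gap, and the LoVo arrays themselves were spread over more than 1 log2 unit. LoVo averaged 7.07 ± 0.508 and GP5d 8.57 ± 0.0745 (SD, n = 4 each). The log2 difference was -1.50, with a 95% interval from -1.97 to -1.03, an SE of 0.212 and a limma adjusted p of 0.000236. Without LoVo replicate 3, the lowest array, it was -1.27 (limma adjusted p = 2.17e-05), and it lay between -1.65 and -1.27 whichever array was left out. Of all genes, 93.4% had a smaller absolute difference than PDS5A.

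CTCF (ENSG00000102974_at), the DNA-binding protein at which cohesin loops are anchored, had log2 values of 9.67, 9.71, 9.65 and 9.51 in LoVo and 9.02, 9.01, 9.18 and 9.28 in GP5d. The lines did not overlap, and LoVo replicate 3 sat with the other LoVo arrays. LoVo averaged 9.63 ± 0.0853 and GP5d 9.12 ± 0.131 (SD, n = 4 each). The log2 difference was 0.51, or 1.43-fold, with an SE of 0.0894 and a limma adjusted p of 0.000976. It was also 0.51 without LoVo replicate 3 (limma adjusted p = 0.00136).

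**Figure D2:**
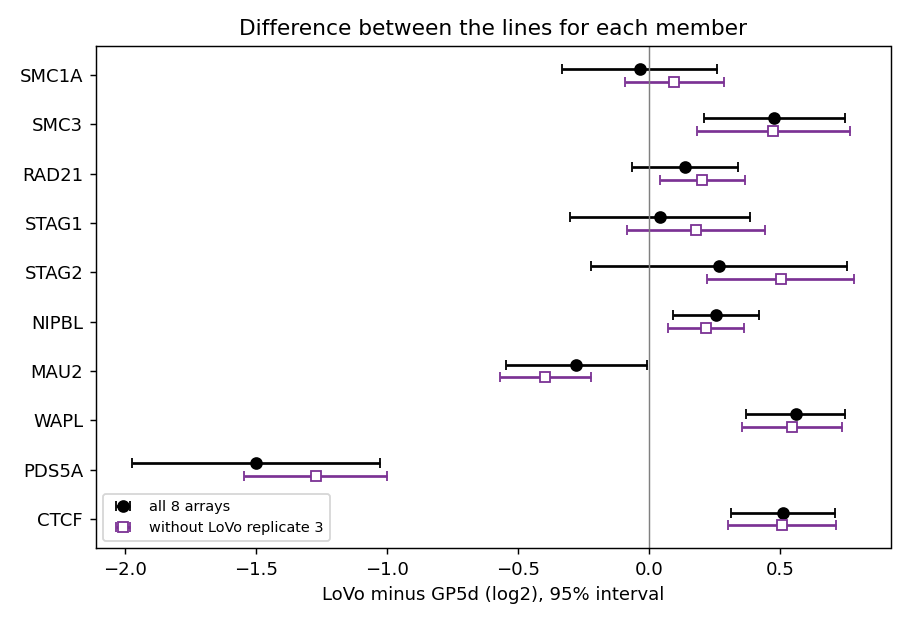
The log2 difference, LoVo minus GP5d, is drawn for each member with its 95% interval from limma, over all 8 arrays (filled circles) and without LoVo replicate 3 (open squares). The intervals of SMC3, NIPBL, WAPL and CTCF lie above 0 and that of PDS5A lies below 0 with all 8 arrays, and leaving out the array moves STAG2 from 0.27 to 0.50.

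The effect of LoVo replicate 3 was uneven across the members. It lay below the mean of the other LoVo arrays in STAG2, PDS5A, SMC1A and RAD21, with log2 deviations of -0.94, -0.91, -0.53 and -0.27. It lay above that mean in MAU2 by 0.47 and in NIPBL by 0.15, and within 0.06 of it in WAPL, CTCF and SMC3. Among the 10384 genes with a mean above the low peak the median absolute deviation of this array was 0.253, and 95.5% of them deviated less than STAG2 and 95.04% less than PDS5A. This array thus deviated least in WAPL, CTCF, SMC3 and NIPBL, which, like PDS5A, passed with and without it. Much of the spread of STAG2 and PDS5A in LoVo came from that array. Their LoVo SDs were 0.240 and 0.275 without it (n = 3), against 0.510 and 0.508 with it (n = 4). Without it they were still above the median SD of 0.132 for genes above the low peak on the same LoVo arrays. Without the array 8 members passed, 6 higher and 2 lower in LoVo, where 47.4% of all genes passed, 23.6% higher and 23.8% lower. Among genes with a mean above the low peak 69.3% then passed.

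How often the members differed can be read against the table as a whole. The 4 values of LoVo did not overlap the 4 of GP5d for 5 members, against 44.1% of all genes, and without LoVo replicate 3 for 8 members, against 51.4%. Among genes with a mean above the low peak 64.2% passed the test, against 5 of the 9 members there. Without LoVo replicate 3 these were 69.3% and 8 of 9. The median absolute log2 difference was 0.278 for those 9 members and 0.482 for all genes above the low peak. By signed difference 7 of 10 members had a higher mean in LoVo, as did 56.1% of all genes. The median signed difference was 0.20 for the members and 0.05 for all genes.

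**Figure D3:**
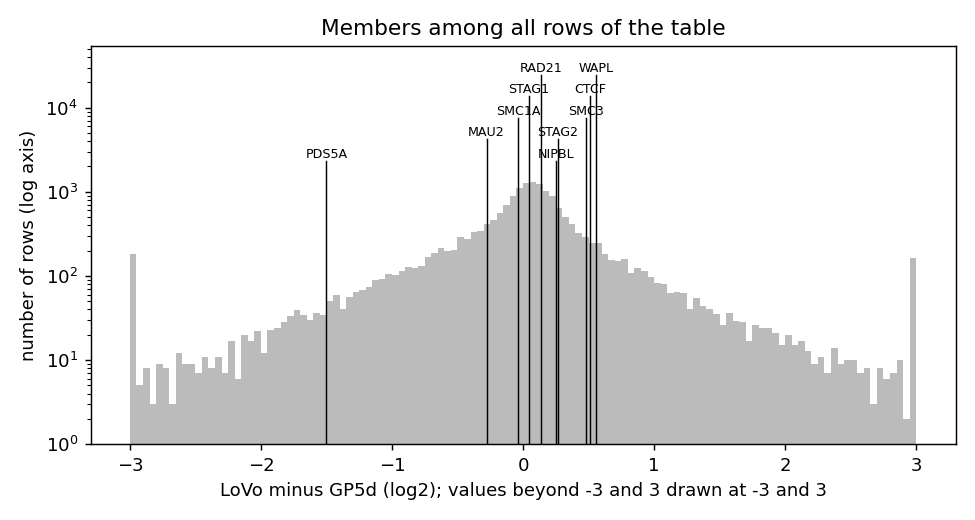
The histogram gives the log2 difference, LoVo minus GP5d, of all 19002 genes, with the number of genes on a log axis, and vertical lines mark the members. PDS5A stands at -1.50, and the other 9 members lie between -0.28 and 0.56, within the central bulk of genes.

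To ask whether partners or opponents in the complex differed by unequal amounts, the log2 ratio of 2 members was taken on each array for 6 pairs, and LoVo and GP5d were compared by permuting the arrays over all 70 assignments (an exact test, two-sided, whose smallest possible p is 0.0286). The level of such a ratio depends on the probes, so only its difference between the lines is read. PDS5A over WAPL had log2 ratios of -1.92, -1.34, -2.43 and -1.11 in LoVo, against 0.41, 0.22, 0.48 and 0.33 in GP5d. The lines were far apart, with a difference of -2.06, so that the ratio was 4.17-fold lower in LoVo (exact permutation p = 0.0286, adjusted over 6 pairs 0.0429). Every LoVo array was below every GP5d array in PDS5A and above every one in WAPL, so this ratio had to separate the lines. Its p therefore adds nothing to the results of the 2 members. NIPBL over MAU2, the subunits of the loader, was higher in LoVo by 0.53, with MAU2 close to the low peak (exact permutation p = 0.0286, adjusted 0.0429). WAPL over NIPBL, release against loading, was higher in LoVo by 0.30, with the same p and adjusted p. CTCF over RAD21 was higher in LoVo by 0.38, again with the same p and adjusted p, and the lines nearly touched, at -0.01 on the lowest LoVo array and -0.04 on the highest GP5d array.

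The other pairs did not pass with all 8 arrays. SMC1A over SMC3 had a difference of -0.51 (exact permutation p = 0.0857, adjusted 0.103), and one of its terms is close to the low peak. STAG2 over STAG1 had a difference of 0.23 (exact permutation p = 0.2, adjusted 0.2), but with STAG1 in the low peak this ratio mostly carries STAG2. The pair calls depend on one another as well as on the arrays. The smallest possible p is 0.0286 with 8 arrays and with 7. A pair can therefore pass the adjustment over 6 pairs only where at least 4 pairs reach that p. With 7 arrays, 4 of the 6 pairs passed without LoVo replicate 1 or GP5d replicate 3, and 0 passed without any other array. A count of 0 thus does not mean that no pair reached the smallest p. Without LoVo replicate 1, SMC1A over SMC3 was among those that passed, at -0.65 (exact permutation p = 0.0286, adjusted 0.0429), and CTCF over RAD21 was not. Without LoVo replicate 3, PDS5A over WAPL, NIPBL over MAU2 and WAPL over NIPBL had differences of -1.82, 0.61 and 0.33, each with an exact permutation p of 0.0286, the smallest that 35 assignments allow, and an adjusted p of 0.0571. CTCF over RAD21 then had a difference of 0.30 (exact permutation p = 0.0571, adjusted 0.0857).

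**Figure D4:**
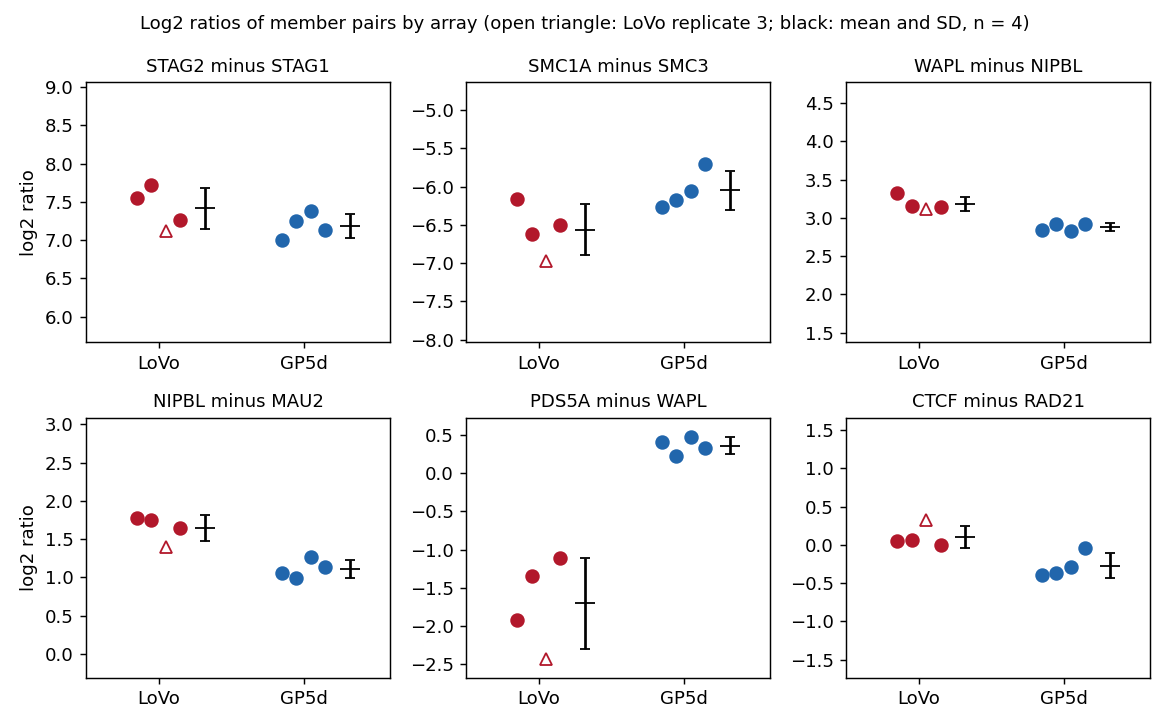
The log2 ratio of each pair is plotted by array, with LoVo on the left and GP5d on the right, mean and SD in black (n = 4), and panels of equal height. PDS5A over WAPL separates the lines most, with LoVo arrays reaching up to -1.11 and GP5d arrays down to 0.22.

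The genes most like PDS5A and WAPL in pattern were sought over the 8 arrays, as the smallest root mean square distance between log2 values after each gene's own mean was subtracted, among the 10383 other genes with a mean above the low peak. For PDS5A the nearest were ENSG00000109586_at, at a distance of 0.107 and with a log2 difference of -1.54, and ENSG00000013306_at, at 0.120 and -1.51. For WAPL the nearest were ENSG00000135821_at, at a distance of 0.0400 and with a log2 difference of 0.56, and ENSG00000160007_at, at 0.0407 and 0.57. With 2 lines such a likeness mainly reflects a difference of the same size between them.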

How the data were processed

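RNA of 4 LoVo and 4 GP5d cultures was measured on Affymetrix arrays. The authors deposited 1 table of log2 values, 19002 genes by 8 arrays. The submitters' processing notes name RMA and GCRMA and give neither a role, so which of them the deposited values come from is unknown. The array type and the probe grouping are likewise not given in the sources used here, beyond Ensembl IDs as row names. The values ran from 0.472 to 14.7, which fits base 2, and column medians lay between 3.05 and 3.11, so no further scaling was done. Probes shared with related genes were not separated out. The table holds no symbols and the RefSeq gene table no Ensembl IDs, so the lists of other cohesin, condensin and marker genes were not run. The members and lists were chosen with earlier results of these data known. The test was limma's moderated linear model (version 3.58.1, R 4.3.3) with line as the only factor, fitted on all genes after being tested on simulated data. All 10 members are named, and likeness was sought for the members with the largest difference in each direction. Arrays give no read depth, and their number limits the precision. Labels give no batch. Same-numbered replicates did not deviate together (correlations -0.0341 to 0.0488), so the replicate number was not used as a block. Plots used matplotlib 3.10.9. Alternatives were other normalizations, filters, floors, variance priors, array weights, a block, minimum differences and each array left out.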

Additional observations from a re-analysis of the deposited data

Results flagged for a closer look

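Dixon's test was run on the 4 arrays of each line for the 10 members and the 6 pairs, 32 groups in all, where chance gives about 1 in 20. It singled out an array in 2 of the 32. MAU2 was at 4.29 on LoVo replicate 3, while the other LoVo arrays were between 3.81 and 3.85. The log2 ratio of WAPL over NIPBL was 3.32 on LoVo replicate 1, while the other LoVo arrays were between 3.12 and 3.15. What set these arrays apart was not tested.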

How the results depend on the processing

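PDS5A kept its direction and passed in all 18 alternatives, with log2 differences from -1.65 to -1.27. WAPL, CTCF, SMC3 and NIPBL kept their direction in all 18, and passed in 16, 16, 16 and 14 of them. With a minimum log2 difference of 1 (by construction) and with limma's treat against 0.5 these 4 did not pass, so that 0 members were higher and 1 was lower in LoVo. WAPL and CTCF lay above 0.5 and missed treat on its p (0.248 and 0.450 in limma, unadjusted). Those settings called 2530 and 3057 of all genes, against 8230. Array weights added MAU2, so that 2 members were lower in LoVo, and STAG2 (0.43, limma adjusted p = 0.0295), so that 5 were higher. With 1 array left out 3 to 6 members passed as higher, 1 to 2 as lower, and 7235 to 9000 of all genes. With the replicate block NIPBL was at 0.25 (limma adjusted p = 0.0504) and no other member's call changed. For the pairs with the replicate block as 4 sign-flipped pairs the exact permutation p cannot go below 0.125, and WAPL over NIPBL (0.30), NIPBL over MAU2 (0.53), PDS5A over WAPL (-2.06) and CTCF over RAD21 (0.38) then had an adjusted p of 0.188. With 1 array left out the log2 ratio differences were 0.26 to 0.33 for WAPL over NIPBL, 0.49 to 0.61 for NIPBL over MAU2, -2.26 to -1.82 for PDS5A over WAPL, 0.30 to 0.45 for CTCF over RAD21, -0.65 to -0.38 for SMC1A over SMC3 and 0.12 to 0.32 for STAG2 over STAG1. Among members that did not pass, SMC1A turned to 0.0030 after quantile normalization, 0.0639 with array weights, 0.10 without LoVo replicate 3 and 0.0037 without GP5d replicate 3. STAG1, whose values in the low peak have no reliable order, turned to -0.0067 after quantile normalization, -0.0276 after cyclic loess, -0.0573 without LoVo replicate 1 and -0.0070 without GP5d replicate 4. With 1 array left out the ranges were -0.0988 to 0.0963 for SMC1A and -0.0573 to 0.178 for STAG1. The cause was not tested. With low values raised to the end of the low peak STAG1 is equal on all arrays, which leaves no difference to sign, and it is not tested with dim genes left out. With that end at 2 or 4 SDs, chosen after seeing the data, STAG1 was still the 1 member within the low peak. The lists of other genes were not run.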
